A study of Mus musculus with 16 samples.

Results

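The 30 genes described here make, sense, move, store and remove cholesterol. They were taken from a table of raw counts for 49315 mouse genes by their gene names, and all 30 were found once and passed the filter on low counts that left 17469 tested genes. RNA was sequenced from the hippocampus of 16 mice, 4 in each of 4 groups: wild type mice fed a standard or a ketogenic diet, and Kcna1 knockout mice fed one or the other. Kcna1 is the gene of a potassium channel of axons, and mice without it develop seizures. A ketogenic diet is rich in fat and poor in carbohydrate. The labels gave no age, sex, strain or diet duration, and nothing on how the knockout allele was built. The title of the series concerns the effect of the diet on astrogliosis in the epileptic brain.

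Cholesterol is built from acetyl-CoA through the mevalonate arm, which ends in farnesyl diphosphate, and then through squalene and lanosterol to the sterol itself. The pathway is controlled by the transcription factor encoded by Srebf2, which the escort protein Scap carries out of the endoplasmic reticulum when membrane sterol is scarce, while Insig proteins hold the pair back when sterol is plentiful. The adult brain makes its own cholesterol because lipoproteins of the blood do not cross the blood-brain barrier. Astrocytes and myelin-forming oligodendrocytes are its main producers there, and neurons dispose of the excess by hydroxylating it with Cyp46a1.

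Total counts ranged from 13440230 to 22309504 per library, and the lowest count of any of the 30 genes in any library was 138, for Ebp. Libraries are named by their animal tags. All 6 hippocampal marker genes chosen as a check of the tissue were tested, with a summed level of 462 to 821 CPM (counts scaled to a common library total). Kcna1 measured 43.4 to 47.2 CPM in 7 of the 8 knockout libraries and 107 to 130 CPM in wild type, and the library labelled knockout KC888LL on the standard diet lay between, at 82.0 CPM. Sex was not given, and the Y-linked gene Ddx3y was expressed in KC890RL (wild type, standard diet), KC872RL and KC873RR (knockout, standard diet) and KC846L (wild type, ketogenic diet). KC890RL also had Xist, at 41.1 CPM, against 4.43 to 8.84 CPM in the other 3 of these libraries and 729.6 to 844 CPM in the 12 without Ddx3y expression. No knockout on the ketogenic diet showed it, at 0.150 CPM or less. Nothing says that the 4 libraries of a group were prepared apart from one another, so p-values measure the spread between these samples, which may be partly technical. Fewer cells of a type and less RNA per cell cannot be told apart in these tissue samples.

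In wild type on the standard diet the genes of the list were expressed at widely different levels. Per kilobase of annotated exon, Hmgcs1, which makes HMG-CoA for the mevalonate arm, was the highest at 58.8 ± 2.22 CPM per kilobase (SD, n = 4). Cyp46a1 followed at 41.1 ± 3.46 and Srebf2 at 29.1 ± 1.63 CPM per kilobase (SD, n = 4). These 3 levels were further apart than their spread. The other 27 genes lay between 3.26 CPM per kilobase, for the sterol reductase Lbr, and 15.8 CPM per kilobase, for Insig1. The 4 libraries of this group were close to each other, with a summed level of the 30 genes of 1655 to 1680 CPM.

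Of the promoters, 4 are shown: that of Hmgcs1, the 1 of 25 genes with a promoter at hand that held the sterol regulatory element core TCACNCCAC, and those of Srebf2, Lss and Mvd, the 3 genes of smallest p with the diet in the knockout among those 25. The sequences are the 250 bases before the annotated start, from RefSeq on GRCm38.p6, written 5′ to 3′ on the strand of the gene. Capitals mark that core and the NF-Y box CCAAT, or its reverse complement ATTGG.
Hmgcs1, chr13:119690101-119690350, plus strand: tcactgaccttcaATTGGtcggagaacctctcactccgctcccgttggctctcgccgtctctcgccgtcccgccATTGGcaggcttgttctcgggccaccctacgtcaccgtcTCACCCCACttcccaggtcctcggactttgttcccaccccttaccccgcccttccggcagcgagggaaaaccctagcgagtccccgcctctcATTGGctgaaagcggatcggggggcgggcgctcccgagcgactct
Srebf2, chr15:82147019-82147268, plus strand: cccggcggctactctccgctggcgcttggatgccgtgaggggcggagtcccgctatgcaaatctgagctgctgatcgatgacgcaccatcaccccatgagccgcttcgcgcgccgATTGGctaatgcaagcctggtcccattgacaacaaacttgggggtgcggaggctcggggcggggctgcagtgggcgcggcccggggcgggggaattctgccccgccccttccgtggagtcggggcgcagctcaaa
Lss, chr10:76531355-76531604, plus strand: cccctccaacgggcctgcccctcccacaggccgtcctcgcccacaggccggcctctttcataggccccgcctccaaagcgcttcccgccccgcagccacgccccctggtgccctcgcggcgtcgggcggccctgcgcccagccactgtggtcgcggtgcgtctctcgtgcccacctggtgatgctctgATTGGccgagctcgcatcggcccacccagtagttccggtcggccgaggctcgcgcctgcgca
Mvd, chr8:122443423-122443672, minus strand: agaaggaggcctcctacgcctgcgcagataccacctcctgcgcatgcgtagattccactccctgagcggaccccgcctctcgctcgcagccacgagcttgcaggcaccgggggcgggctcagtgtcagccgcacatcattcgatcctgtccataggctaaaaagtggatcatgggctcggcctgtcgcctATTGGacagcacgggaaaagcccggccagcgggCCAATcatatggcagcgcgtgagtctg

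Windows from 250 bases before to 50 bases after the start were at hand for 25 of the 30 genes (not for Sqle, Fdft1, Fdps, Stard4 and Npc1), in 31 windows, and both strands were searched. The core TCACNCCAC was in 1 of the 31 windows, or 3.23%, against 1.24% of all 32851 windows, and it stood at -137 to -129 from the start of Hmgcs1. CCAAT was in 22 of 31 windows, or 71%, against 37.4% of all windows and 37.2% of the windows of tested genes. The Sp1 box GGGCGG was in 80.6%, against 35.7% of all windows and 58.8% of those of tested genes. TCACGTGA, a palindromic site, was in 0 of 31, against 0.974% of all windows. The Srebf2 window held the first 8 letters of the strict core, TCACCCCA, a search added after the sequence was seen, at -162 to -155 from the start, and 1.56% of all windows hold those letters. A match describes the letters only.

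The 21 enzymes of the list, from Acat2 to Dhcr7, differed most between animals of the knockout on the ketogenic diet. Their summed level was 1317 CPM in KC913RR and 1450 CPM in KC934R, but 772 CPM in KC916RRL and 852 CPM in KC935LL. In wild type it was 915 to 966 CPM with standard and 799 to 846 CPM with ketogenic feeding. Knockouts fed the standard diet had 811 CPM in KC872RL, 899 CPM in KC888LL, 848 CPM in KC893RL and only 601 CPM in KC873RR. KC934R and KC913RR thus lay above all other libraries, KC873RR below all others, and the other 2 knockout animals on the ketogenic diet just below and just above the range of wild type on that diet.

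The same order of libraries ran through most enzymes. KC934R and KC913RR were the 2 highest of the 16 libraries for 14 of the 21 enzymes, and the exceptions were Mvk, Pmvk, Ggps1, Aacs, Tm7sf2, Lbr and Ebp. They were also the 2 highest for Srebf2, Insig1 and the sterol carrier Stard4. KC873RR was the lowest of 16 for 16 of the 21 enzymes and lay below every wild type library on the standard diet for 20 of them. Scap and Insig2 spread least, with 1.24-fold and 1.21-fold between the highest and the lowest library, against 4.15-fold for Stard4 and 3.68-fold for Hmgcs1. These positions are a description, since the libraries were singled out after their values were seen.

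**Figure D1:**
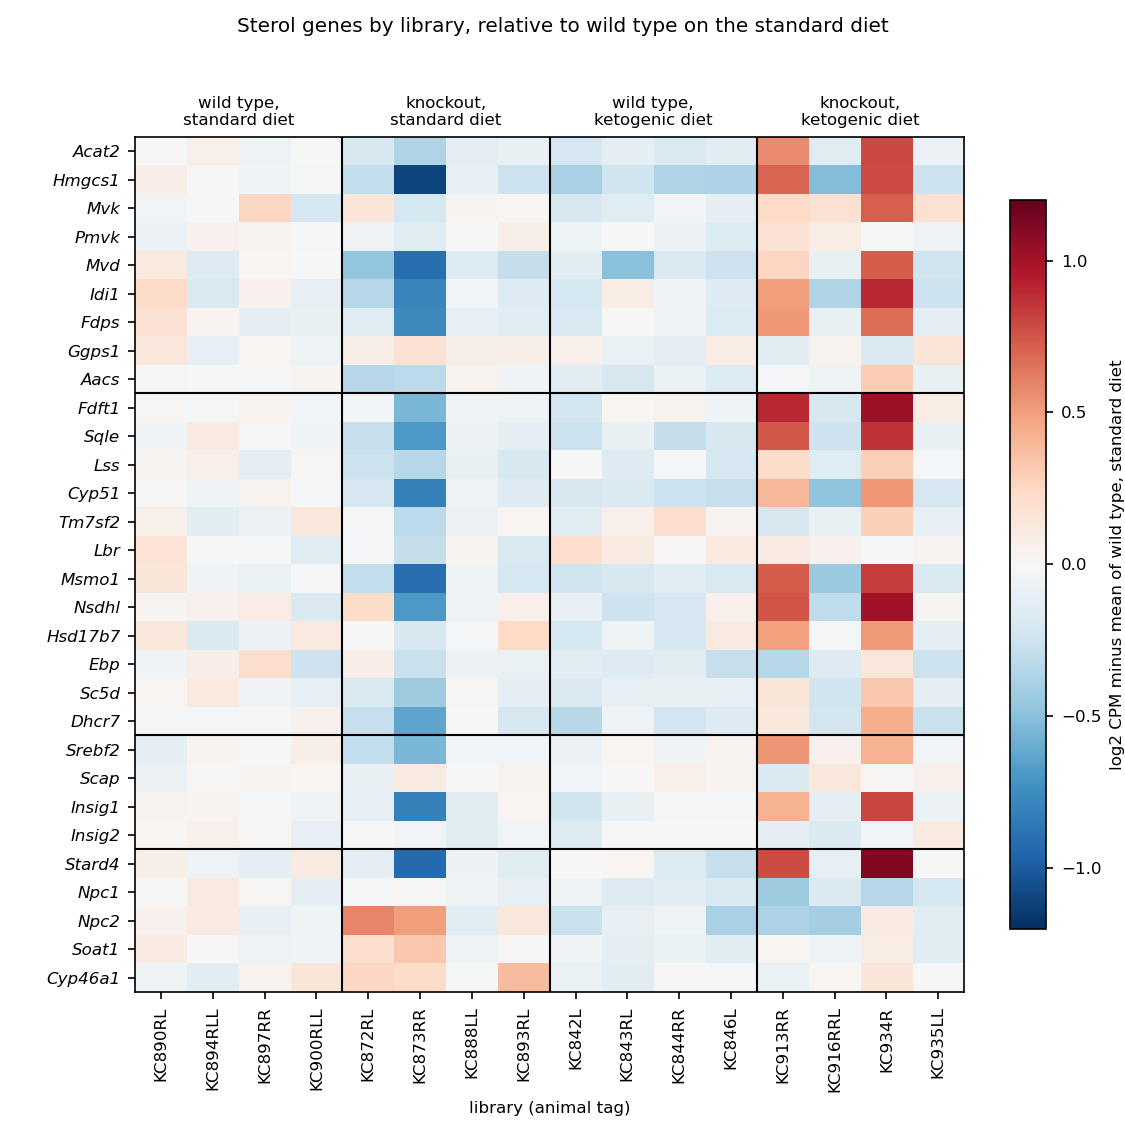
Level of each of the 30 genes (rows) in each library (columns), as log2 CPM minus the mean of the 4 wild type libraries on the standard diet; horizontal lines part the mevalonate arm, the arm from squalene to cholesterol, control genes, and transport, storage and turnover. KC913RR and KC934R are red for most enzymes and KC873RR is blue, while Npc2, Soat1 and Cyp46a1 do not share this pattern.

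The first comparison set knockouts fed the ketogenic diet against knockouts fed the standard diet. None of the 30 genes was called in this comparison (0 at an adjusted p under 0.05, edgeR quasi-likelihood test with Benjamini-Hochberg adjustment over 17469 genes), while 1.16% of all tested genes were, 0.206% higher and 0.95% lower. Without KC888LL, the knockout library of intermediate Kcna1 level, 6 of the 30 and 6.18% of all tested genes were called (1096, against 202 with all libraries), and without KC872RL 0 of the 30 and 0.158% (28 genes). Without KC916RRL 3 of the 30 and 0.496% of all tested genes were called, and without KC935LL 3 of the 30 and 1.04%. With only the groups compared, 0 of the 30 and 0.0535% (9 genes) were called. In the fit of all libraries, 16 genes of the list were above 0 and 3 below at an unadjusted p under 0.05. These are 53.3% and 10% of the list, against 7.83% and 9.1% of all tested genes. That fit estimates 1 spread per gene over all 4 groups, so its p-values and SEs also draw on wild type. For Hmgcs1 the SD was 55.0 and 142 CPM in knockouts on the standard and ketogenic diets, against 10.2 and 10.1 CPM in wild type. The log2 fold change was above 0 for 23 of the 30, and for 51.5% of all tested genes. The median log2 fold change of the list was 0.31, and that of all tested genes was 0.01. DESeq2 called 10 of the 30, namely Acat2, Mvd, Fdps, Fdft1, Sqle, Lss, Srebf2 and Stard4 as higher and Npc1 and Npc2 as lower, and limma-voom called 0. DESeq2 called 4.2% of the genes to which it gave an adjusted p, 677 of 16100. The median was 0.19 without KC934R. The knockout groups also differed in sex markers, and with only the 6 of these 8 libraries that had Xist and lacked Ddx3y, 2 on the standard and 4 on the ketogenic diet, the median was 0.18. The 2 left out, KC872RL and KC873RR, also had the highest astrocyte Gfap (2327 and 1340 CPM) and microglia markers (598 and 591 CPM) among standard-diet knockouts. Sex and these levels cannot be told apart in that group, here or in any fit by Xist below.

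In the mevalonate arm, Hmgcs1 measured 439 CPM in KC913RR, 188 in KC916RRL, 463 in KC934R and 226 in KC935LL on the ketogenic diet, and 219 CPM in KC872RL, 126 in KC873RR, 252 in KC888LL and 225 in KC893RL on the standard diet. Its 2 high libraries stood far above the rest, and the groups overlapped. The log2 fold change was 0.68 ± 0.27 (SE, edgeR's adjusted p = 0.226), and 0.47 without KC934R. Acat2, the cytosolic thiolase that starts the arm, measured 46.3, 28.2, 54.1 and 29.8 CPM in the 4 knockout libraries on the ketogenic diet, in the order given for Hmgcs1. On the standard diet it measured 27.4, 24.3, 28.9 and 29.3 CPM, so that KC916RRL lay within the range of the other group and KC935LL just above it. Its log2 fold change was 0.53 ± 0.16 (SE, edgeR's adjusted p = 0.106), and 0.34 without KC934R.

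Mvd, the decarboxylase that yields the first isoprene unit, measured 18.7, 14.6, 25.7 and 13.2 CPM on the ketogenic diet and 11.2, 8.27, 13.9 and 12.7 CPM on the standard diet. KC935LL, at 13.2 CPM, was the 1 ketogenic library inside the range of the standard group. The log2 fold change was 0.65 ± 0.18 (SE, edgeR's adjusted p = 0.0930). Mvd was called when KC888LL (0.76, edgeR's adjusted p = 0.0315) or KC935LL (0.78, edgeR's adjusted p = 0.0392) was removed, and its adjusted p over 16 alternatives was 0.0199 to 0.843. Without KC934R its log2 fold change was 0.43. Fdps, which joins isoprene units into farnesyl diphosphate, measured 29.4, 19.2, 32.5 and 19.0 CPM on the ketogenic diet and 18.5, 12.004, 19.1 and 18.7 CPM on the standard diet, a log2 fold change of 0.55 ± 0.17 (SE, edgeR's adjusted p = 0.116). KC935LL lay within the standard group for Fdps and KC916RRL just above it, while KC913RR and KC934R were well apart.

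Mvk, which phosphorylates mevalonate, was the 1 enzyme whose groups did not overlap, a pattern that 2.68% of all tested genes showed in this direction. It measured 16.6 to 24.1 CPM on the ketogenic and 12.6 to 16.1 CPM on the standard diet, with a log2 fold change of 0.35 ± 0.12 (SE, edgeR's adjusted p = 0.154) and 0.21 without KC934R. Idi1, the isomerase of the isoprene units, had a log2 fold change of 0.61 ± 0.24 (SE), and Aacs, which activates acetoacetate for lipid synthesis and so draws on ketone bodies, of 0.20 ± 0.09 (SE). Pmvk, the next kinase of the arm, was at 0.08 ± 0.07 (SE), and at 0.03 without KC913RR. Ggps1, which leads away from sterols to geranylgeranyl diphosphate, was the 1 enzyme of the arm below 0, at -0.12 ± 0.08 (SE). Without KC934R Idi1 was at 0.32, Aacs at 0.10 and Ggps1 at -0.07, and with only the Xist libraries Aacs was at 0.05. With all libraries the adjusted p of Idi1, Aacs, Pmvk and Ggps1 lay between 0.214 and 0.630 (edgeR).

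In the arm from squalene to cholesterol, Fdft1, which makes squalene, and Sqle, which oxidises it, had the largest log2 fold changes, 0.71 ± 0.22 and 0.67 ± 0.21 (SE, edgeR's adjusted p = 0.131 and 0.140). Sqle measured 103, 51.8, 112 and 57.7 CPM in the ketogenic libraries, in the order given for Hmgcs1, and 50.7, 38.1, 58.6 and 56.7 CPM in the standard libraries. KC916RRL and KC935LL lay within the range of the standard group for Sqle. Lss, which folds oxidised squalene into lanosterol, had a smaller difference and a smaller spread. It measured 52.6, 40.8, 55.3 and 44.7 CPM on the ketogenic diet and 37.9, 35.7, 42.4 and 39.5 CPM on the standard diet, with KC916RRL alone inside the standard range. Its log2 fold change was 0.32 ± 0.09 (SE, edgeR's adjusted p = 0.0811). Lss was called with no filter on low counts (adjusted p = 0.0461), by DESeq2, without KC888LL and without KC916RRL (adjusted p = 0.0263 and 0.0461), and over 16 alternatives its adjusted p ranged from 0.0263 to 0.83.

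Msmo1 and Nsdhl, which strip methyl groups from lanosterol, had log2 fold changes of 0.67 ± 0.25 and 0.55 ± 0.24 (SE). Cyp51, which removes the first of those groups, was at 0.40 ± 0.19, and Hsd17b7 and Sc5d were at 0.24 ± 0.13 and 0.22 ± 0.10 (SE). Without KC934R Nsdhl was at 0.31, Cyp51 at 0.23, Hsd17b7 at 0.14 and Sc5d at 0.11. Dhcr7, the last reductase before cholesterol, measured 36.8, 28.9, 45.5 and 28.0 CPM on the ketogenic diet and 27.9, 21.7, 33.7 and 29.4 CPM on the standard diet. KC913RR and KC934R lay above the standard group and the other 2 within it, and the log2 fold change was 0.31 ± 0.14 (SE, edgeR's adjusted p = 0.273), or 0.15 without KC934R and 0.14 with only the Xist libraries. Tm7sf2 and Lbr, which reduce the same double bond, were at 0.08 ± 0.11 and 0.15 ± 0.09, and the isomerase Ebp was at -0.06 ± 0.12 (SE). Lbr was at 0.097 without KC873RR.

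Among the control genes, Srebf2 measured 303, 217, 278 and 204 CPM in the ketogenic libraries KC913RR, KC916RRL, KC934R and KC935LL, and 170, 143, 205 and 204 CPM in the standard libraries KC872RL, KC873RR, KC888LL and KC893RL. KC935LL fell inside the range of the standard group, by less than 1 CPM. The log2 fold change was 0.47 ± 0.12 (SE, edgeR's adjusted p = 0.0685). Srebf2 passed without KC888LL and without KC935LL (adjusted p = 0.0245 and 0.0286) and by DESeq2 (0.00764), and the range over 16 alternatives was 0.00764 to 0.815. With only the Xist libraries its log2 fold change was 0.29. Insig1, itself a target of the factor that Srebf2 encodes, measured 65.6, 45.5, 85.3 and 46.5 CPM on the ketogenic diet and 45.8, 27.9, 44.7 and 49.7 CPM on the standard diet. KC913RR and KC934R were above the standard group for Insig1 and the other 2 were within it, with a log2 fold change of 0.53 ± 0.19 (SE, edgeR's adjusted p = 0.178) and 0.32 without KC934R. Scap and Insig2 were at 0.00 ± 0.06 and 0.01 ± 0.06 (SE).

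The genes of transport, storage and turnover did not share the direction of the enzymes, except Stard4. Stard4, a soluble carrier that moves cholesterol between membranes, measured 39.7, 21.5, 50.1 and 23.0 CPM on the ketogenic diet and 21.4, 12.1, 21.97 and 20.9 CPM on the standard diet. KC916RRL lay within the standard group and KC935LL just above it. Stard4 had the largest log2 fold change of the list, 0.82 ± 0.24 (SE, edgeR's adjusted p = 0.117). Npc1, the membrane protein that releases cholesterol from lysosomes, measured 60.1, 71.6, 63.5 and 69.5 CPM on the ketogenic diet and 79.2, 81.2, 78.0 and 75.3 CPM on the standard diet. All 4 ketogenic libraries lay below all 4 standard libraries, which held for 3.72% of all tested genes. Its log2 fold change was -0.25 ± 0.06 (SE), and it had the smallest p of the list (edgeR, adjusted p = 0.0565). Npc1 was called by DESeq2 (0.0119), with the filter of at least 10 counts in every library (0.0489) and without KC888LL (0.0396), and the range over 16 alternatives was 0.0119 to 0.749.

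Npc2, the soluble lysosomal partner of Npc1, measured 35.1, 34.1, 48.7 and 41.2 CPM on the ketogenic diet and 68.4, 64.2, 41.2 and 49.9 CPM on the standard diet. It was high in KC872RL and KC873RR and lower in the remaining 6 knockout libraries, a log2 fold change of -0.49 ± 0.14 (SE, edgeR's adjusted p = 0.108). Without KC888LL it was -0.61 with an adjusted p of 0.0107, and DESeq2 also called it (0.0272), with a range over 16 alternatives of 0.0107 to 0.884. With only the Xist libraries it was -0.19. The summed level of 10 microglia markers was 598 CPM in KC872RL and 591 CPM in KC873RR, against 256 to 313 CPM in the other 14 libraries, and their part in the level of Npc2 was not tested. Cyp46a1 measured 127, 137, 150 and 134 CPM on the ketogenic and 160, 157, 133 and 175 CPM on the standard diet, with overlap between the groups and a log2 fold change of -0.19 ± 0.08 (SE, edgeR's adjusted p = 0.226). It was called without KC888LL, at -0.26 (edgeR's adjusted p = 0.0398), and its adjusted p over 16 alternatives reached 0.864. Soat1, which esterifies cholesterol for storage, was at -0.14 ± 0.08 (SE), and at 0.008 with only the Xist libraries.

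**Figure D2:**
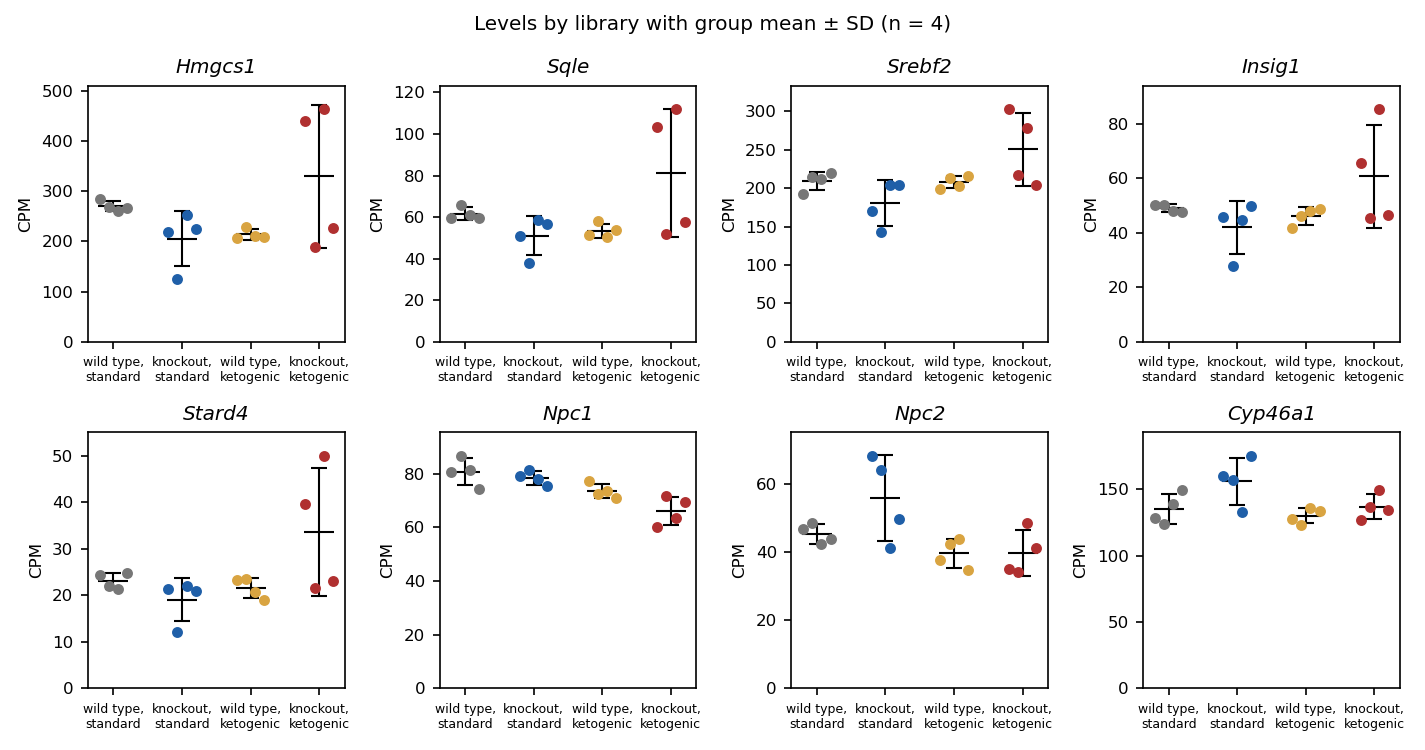
CPM of 8 genes in each library (points) by group, with the group mean and SD (bars, n = 4); within a group the points are in the order of the animal tags. In the knockout on the ketogenic diet, Hmgcs1, Sqle, Insig1 and Stard4 split into 2 high and 2 low libraries, Npc1 is lower without overlap with the knockout on the standard diet, and Npc2 is highest in 2 knockout libraries on the standard diet.

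In wild type, where the channel is present, the 2 diets were compared in the same way. Again 0 of the 30 genes were called (edgeR, 0.0114% of all tested genes called), with 1 gene, Npc1, below 0 at an unadjusted p under 0.05 and none above, against 3.01% and 2.44% of all tested genes, and 0 calls by DESeq2 and limma-voom. The log2 fold changes were small and mostly below 0, with 3 of 30 genes above 0 against 49.9% of all tested genes, and with a median of -0.10 against 0.00 over all tested genes. For 7 of the 30 genes, or 23.3%, all 4 libraries on the ketogenic diet lay below all 4 on the standard diet, against 2.42% of all tested genes, and for none did they lie above, against 2.46%. The 7 genes were Acat2, Hmgcs1, Aacs, Sqle, Cyp51, Msmo1 and Dhcr7.

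Hmgcs1 measured 206, 229, 210 and 209 CPM in KC842L, KC843RL, KC844RR and KC846L on the ketogenic diet. On the standard diet it measured 284, 268, 260 and 267 CPM in KC890RL, KC894RLL, KC897RR and KC900RLL. The gap between the groups was wider than the spread within either, yet the log2 fold change of -0.34 carried an SE of 0.27 (edgeR, adjusted p = 0.986) in the fit, which estimates 1 spread over all 4 groups. With only the wild type groups in the fit Hmgcs1 was called (adjusted p = 0.0128). Srebf2 measured 199 to 216 CPM on the ketogenic and 192 to 219 CPM on the standard diet, a log2 fold change of -0.01 ± 0.12 (SE). Npc1 was at -0.14 ± 0.06 (SE, edgeR's adjusted p = 0.889), and Insig1 at -0.09 ± 0.19 (SE), or -0.04 without KC842L.

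**Figure D3:**
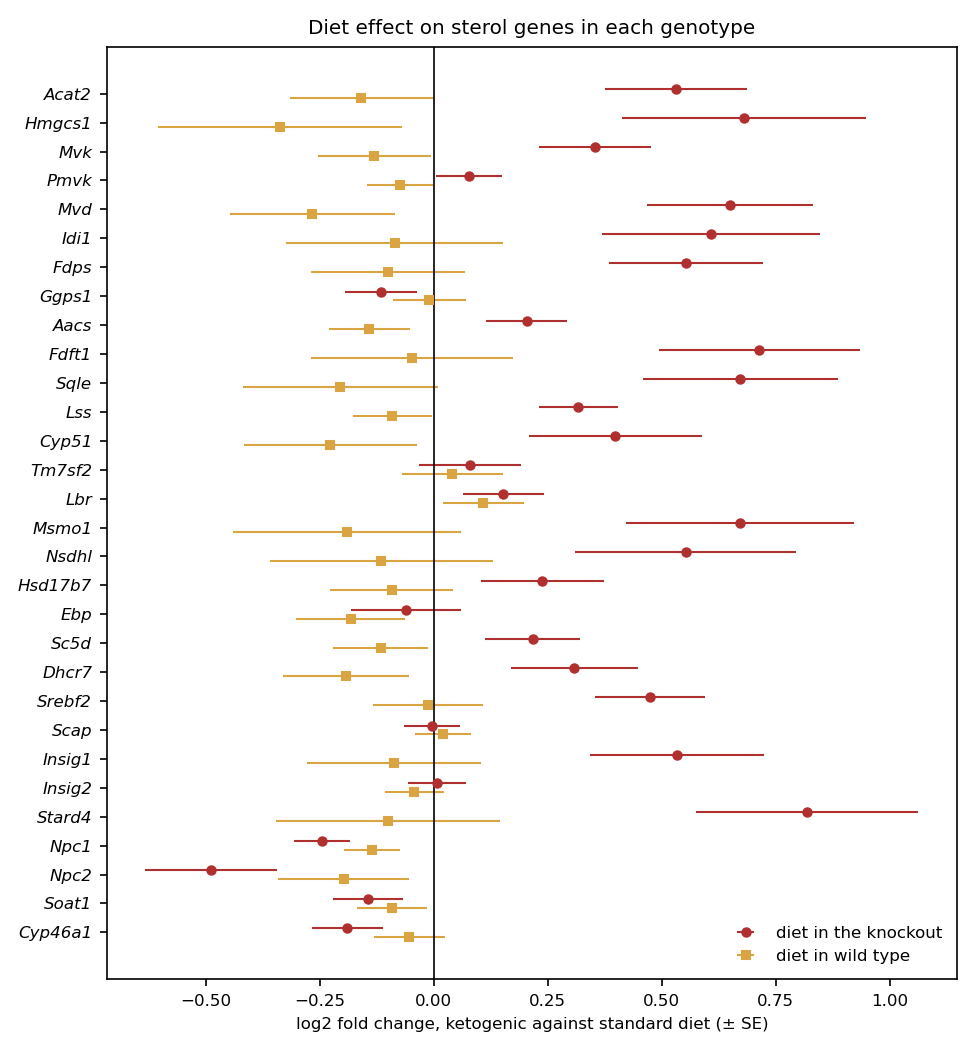
Log2 fold change of ketogenic against standard diet for each gene, in the knockout (red circles) and in wild type (yellow squares), with bars of 1 SE from the fit over all 16 libraries. Most enzymes lie at 0.2 to 0.7 in the knockout and between -0.34 and 0.11 in wild type, and none of the 60 values passed the adjusted threshold.

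The interaction tested the difference between the diet effects of the 2 genotypes. It called 0 of the 30 genes and 0 of all 17469 (0% called, edgeR), with 16 genes of the list at an unadjusted p under 0.05, all above 0, against 3.38% of all tested genes above and 4.09% below. The difference was above 0 for 24 of the 30, and for 51% of all tested genes. DESeq2 and limma-voom also called 0 of the 30. The median difference of log2 fold changes was 0.45 over the list and 0.00 over all tested genes. Mvd had the smallest p of the list, with a difference of 0.92 ± 0.26 (SE, edgeR's adjusted p = 0.654), followed by Lss at 0.41 ± 0.12 (SE) with the same adjusted p. For Hmgcs1 the difference was 1.02 ± 0.38 and for Srebf2 0.49 ± 0.17 (SE). A different response of any single gene of the list in the 2 genotypes was thus not shown.

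Under standard feeding, knockouts were compared with wild type. The groups also differed in sex markers, with Ddx3y expressed in 2 of the 4 knockout and 1 of the 4 wild type libraries, and KC888LL had the intermediate Kcna1 level given above. The fit called 0 of the 30 genes (edgeR, 0.00572% of all tested genes called, which is 1 gene), as did DESeq2, which called 1.03% of genes, and limma-voom. Without KC888LL edgeR called 1016 genes, or 5.73%, of which 1 was on the list, Cyp46a1. In the fit of all libraries 3 genes had an unadjusted p under 0.05, Mvd and Lss below 0 and Cyp46a1 above, against 6.69% and 7.64% of all tested genes. The median of the list was -0.16 and that of all tested genes 0.00, with 6 of 30 genes above 0 against 51.1% of all tested genes, and without KC873RR the median was -0.07. Mvd was at -0.44 ± 0.18 and Lss at -0.22 ± 0.09 (SE, edgeR's adjusted p = 0.298 and 0.267), and with only the Xist libraries they were at -0.19 and -0.13. The knockout libraries lay wholly below wild type for 5 of 30 genes, Acat2, Hmgcs1, Mvd, Sqle and Cyp51, or 16.7% against 2.89% of all tested genes, and wholly above for none, against 2.97%. This comparison and that of the diet in wild type share the 4 wild type libraries on the standard diet. The diet comparison in the knockout shares the 4 standard-diet knockouts with this comparison. It shares the 4 ketogenic-diet knockouts with the genotype comparison under ketogenic feeding. Like or mirrored signs between comparisons that share libraries are thus not independent.

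Cyp46a1 went the other way. It measured 160, 157, 133 and 175 CPM in the knockout against 129, 124, 139 and 149 CPM in wild type, with KC888LL inside the wild type range and the 3 others above it. The log2 fold change was 0.21 ± 0.08 (SE, edgeR's adjusted p = 0.248), and without KC888LL it was 0.28 with an adjusted p of 0.0318. Npc2 was at 0.30 ± 0.14 (SE, edgeR's adjusted p = 0.354), high in KC872RL and KC873RR, the 2 knockout libraries that expressed Ddx3y, and it was at 0.19 without KC872RL and 0.02 with only the Xist libraries.

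The genotypes were also compared under ketogenic feeding. Again 0 of the 30 genes were called (edgeR, 0.0172% of all tested genes called), and 0 by DESeq2 and limma-voom. At an unadjusted p under 0.05 there were 13 genes of the list above 0, or 43.3%, against 5.24% of all tested genes, and 1 below, Npc1, against 3.97%. The log2 fold change was above 0 for 24 of the 30, and for 51% of all tested genes. The median was 0.26 against 0.00 over all tested genes, and 0.13 without KC934R. Mvk had the smallest p, at 0.48 ± 0.12 (SE), with 16.6 to 24.1 CPM in the knockout and 12.7 to 14.3 CPM in wild type (edgeR, adjusted p = 0.358). It was the 1 gene of the list whose groups did not overlap, against 2% of all tested genes in that direction and 1.98% in the other. Acat2 was at 0.50 ± 0.15, Stard4 at 0.64 ± 0.24 and Hmgcs1 at 0.62 ± 0.27 (SE), with adjusted p of 0.404, 0.469 and 0.513 (edgeR). Without KC934R they were at 0.31, 0.38 and 0.41. For these 3 genes KC916RRL and KC935LL lay within or close to the wild type range, and KC913RR and KC934R above it.

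Other genes of lipid supply were read from 2 further lists. The first held 18 genes of fatty acid synthesis and of the sterol-sensing liver X receptors, all tested, of which 1 was called with the diet in the knockout, with 3 above 0 and 3 below at an unadjusted p under 0.05 and a median of 0.02, against the 1.16% called and the 7.83% above and 9.1% below given for all tested genes. The called gene was Elovl5, which elongates polyunsaturated fatty acids, at -0.34 ± 0.08 (SE, edgeR's adjusted p = 0.0418), and it passed in 3 of 8 fits with a single library removed, with an adjusted p of 0.188 without KC872RL and a range of 0.00742 to 0.803 over 16 alternatives. With only the Xist libraries it was at -0.18. Acly, which supplies cytosolic acetyl-CoA to both fatty acid and sterol synthesis, was at 0.39 ± 0.11, Fasn at 0.26 ± 0.07 and Acaca at 0.26 ± 0.08 (SE), with adjusted p of 0.0879, 0.0686 and 0.116 (edgeR). Over 16 alternatives Acly passed in 4 (adjusted p 0.01925 to 0.842), Fasn in 3 (0.00617 to 0.843) and Acaca in 0 (0.0507 to 0.864). Acly was at 0.26 without KC913RR, and with only the Xist libraries Fasn was at 0.13 and Acaca at 0.15. The second list held 20 other genes of sterol handling, of which 18 were tested, with 0 called, 4 above and 2 below 0 at an unadjusted p under 0.05, against the same shares, and a median of 0.05. In the other 4 comparisons 0 genes of either list were called.

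Markers of brain cell types did not follow one pattern with the enzymes. The astrocyte gene Gfap, raised in reactive astrocytes, measured 2018 CPM in KC913RR and 1059 CPM in KC934R, where the enzymes were highest. It also measured 2327 CPM in KC872RL and 1340 CPM in KC873RR, where the enzymes summed to 811 and 601 CPM, and 288 to 611 CPM in the other 12 libraries. The 10 astrocyte markers summed to 5029 to 6386 CPM in the knockout on the ketogenic diet and 5063 to 7438 CPM on the standard diet, with 3 of 10 at an unadjusted p under 0.05, all lower, and 0 called (1 by DESeq2 and 1 without KC888LL). Of all tested genes 9.1% were lower at that p. The share called in either direction was 4.2% by DESeq2 and 6.18% without KC888LL. Within the ketogenic group the sum of the astrocyte markers was 6386 CPM in KC913RR and 6245 CPM in KC934R, the 2 libraries highest in the enzymes, and 5114 CPM in KC916RRL and 5029 CPM in KC935LL. On the standard diet it was highest in KC872RL and KC873RR, at 7438 and 7135 CPM.

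Of the 14 oligodendrocyte markers, all had lower fitted values with the diet in the knockout and 11 were called (edgeR, against 0.95% of all tested genes called lower), with summed levels of 2088 to 3907 CPM against 5389 to 5957 CPM. The calls were 0 with Xist as a covariate, 0 with only the Xist libraries, 1 with only the groups compared and 3 to 12 with a single library removed (3 without KC872RL, 5 without KC873RR, 6 without KC916RRL and 7 without KC913RR). The median log2 fold change of these markers was -0.86, and -0.89, -0.92 and -0.86 under the first 3 of those settings. KC913RR and KC934R, highest in the enzymes, were the 2 lowest of all libraries in these markers. In wild type the sums were 3572 to 4550 CPM on the ketogenic and 4329 to 6737 CPM on the standard diet, with 0 called. The 8 oligodendrocyte precursor markers had 3 called lower with the diet in the knockout, and the 10 neuron markers 0, with sums of 12597 to 13300 CPM against 11122 to 12886 CPM. Of the remaining lists in that comparison, microglia had 1 of 10 called lower, blood 4 of 5, thalamus 1 of 5, hippocampus 1 of 6 called higher, and endothelium, choroid plexus and dentate granule cells 0, against 0.206% of all tested genes called higher and 0.95% lower. With only the Xist libraries all of these lists had 0 calls, apart from 1 precursor marker, and with Xist as a covariate only blood had any, at 1. With only the groups compared only blood had calls among them, at 3, and blood had 4 in every fit with a single library removed. In those 8 fits the thalamus list had 0 calls without KC872RL, KC913RR, KC916RRL or KC934R and 2 without KC888LL. The hippocampus list had calls only without KC888LL, at 2, and without KC913RR, at 1. Precursor calls were 1 without KC913RR, 2 without KC872RL and 2 without KC916RRL. Microglia calls were 8 without KC888LL and 6 without KC893RL, and 0 in the other 6 such fits, and endothelium had 1 without KC934R. DESeq2 called 14 oligodendrocyte, 4 precursor, 7 microglia and 2 thalamus markers lower, while limma-voom called 11, 3, 0 and 0, and with at least 10 counts in every library 2 microglia markers were called. Over all genes, in either direction, DESeq2 called 4.2%, limma-voom 0.893%, the fit with at least 10 counts 1.37% and that without KC888LL 6.18%. Of the markers, Folr1 and Hba-a2 were at 0 counts in 1 library each and Shox2, which was not tested, in 3. The part of cell composition in the levels of the sterol genes was not tested.

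**Figure D4:**
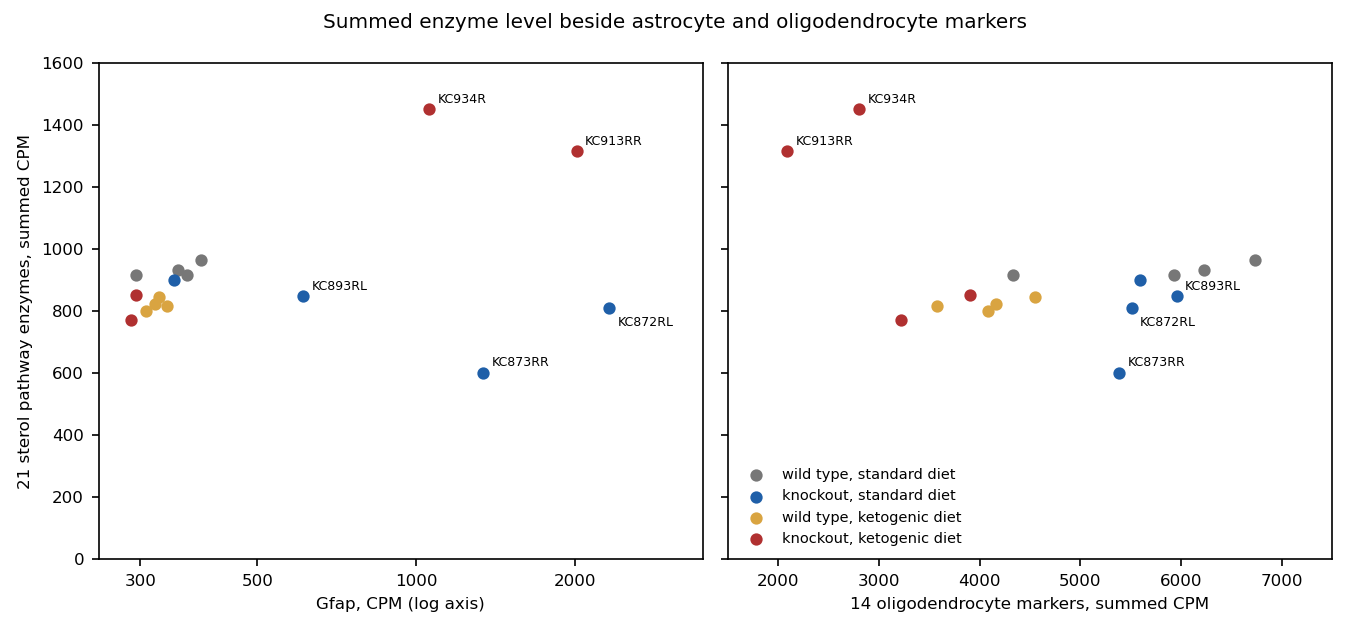
Summed CPM of the 21 enzymes in each library (vertical axis, from 0) against Gfap CPM (left, log axis) and against the summed CPM of 14 oligodendrocyte markers (right), with points coloured by group. The 4 libraries above 1000 CPM of Gfap, all knockout, hold both the 2 highest and the lowest enzyme sums.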

How the data were processed

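Per the labels, hippocampal RNA of 4 animals in each of 4 groups was sequenced. The authors deposited 1 table of raw counts per gene, not normalized, with 1 column per animal. The submitters' processing notes list mm10 and DESeq2, while the aligner, the counting program, the annotation and the use of strand are not given in the sources used here, so overlapping and antisense neighbours are uncertain. Columns named genotype and diet but no replicate number, and were assigned to groups only. The test was edgeR's (version 4.0.16, R 4.3.3; filterByExpr, TMM, robust quasi-likelihood fit of all 16 libraries with 1 coefficient per group, two-sided tests, Benjamini-Hochberg adjustment over all tested genes, threshold 0.05), after the fit was checked on simulated data. The simulated data had the same dispersion per gene in all 4 groups, so that check could not cover groups of unequal spread. SEs came from the F statistic. CPM used effective library sizes, and log2 CPM a prior count of 2. Alternatives were DESeq2 1.42.0, limma-voom (limma 3.58.1), DESeq2 size factors, 2 other filters, only the groups compared, log2 CPM of Xist as a covariate, each library left out in turn and, added after seeing the data, only libraries above 100 CPM of Xist and under 10 CPM of Ddx3y. Positions and exon lengths are from GENCODE on GRCm38. Values by library were given for the 8 genes of smallest p with the diet in the knockout and for Srebf2, Insig1, Dhcr7 and Cyp46a1. Values of Hmgcs1, Sqle and Mvk were added after they were seen. The genes and lists were chosen with earlier results of these data known.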

Additional observations from a re-analysis of the deposited data

Results flagged for a closer look

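Within groups of 4, single libraries stood far apart by Dixon's criterion (gap to the nearest library over the whole range) in 12 of 140 checks over the 30 genes and their summed levels, where chance gives about 7. In the knockout on the ketogenic diet KC934R was apart for Mvk (24.1 CPM), for Aacs (68.5 CPM) and for the summed genes of transport, storage and turnover (356.4 CPM). In the knockout on the standard diet KC873RR was apart for Fdps (12.004 CPM), Fdft1 (36.9 CPM) and Stard4 (12.1 CPM), all low, and for Ggps1 (32.6 CPM), which was high. KC888LL was low for Insig2 (49.2 CPM) in that group. In wild type on the ketogenic diet KC842L was low for Sc5d (62.7 CPM) and Insig2 (48.5 CPM). In wild type on the standard diet KC890RL was low for Scap (91.2 CPM) and high for the summed mevalonate arm (495.3 CPM).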

How the results depend on the processing

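The median log2 fold change of the list kept its sign under every alternative run. Over the fits that left out 1 library it ranged from -0.21 to -0.07 between genotypes under standard feeding, from 0.13 to 0.35 on the ketogenic diet, from 0.19 to 0.39 for the diet in the knockout, from -0.13 to -0.09 for the diet in wild type and from 0.34 to 0.51 for the interaction. For the diet in the knockout the number of the 30 genes called, 0 of them with all libraries and TMM, was 1 with no filter, 1 with at least 10 counts in every library, 10 by DESeq2 and 0 to 6 without 1 library (6 without KC888LL, 3 without KC916RRL and 3 without KC935LL). The shares of all genes called in these fits were 0.697% with no filter, 1.37% with at least 10 counts and 4.2% by DESeq2. They were 6.18% without KC888LL, 0.496% without KC916RRL and 1.04% without KC935LL. For the diet in wild type 1 of the 30 genes was called with only the groups compared, against 0.0661% of all genes. Between genotypes under standard feeding 0 to 1 of the 30 were called without 1 library, with 1 of them and 5.73% of all genes without KC888LL. Over all genes the calls between genotypes under standard feeding, 1 with all libraries, were 18 with no filter, 2 with at least 10 counts, 169 by DESeq2, 2 with Xist as a covariate, 0 with only Xist libraries, 0 with only the groups compared and 0 to 1016 without 1 library (1016 without KC888LL). On the ketogenic diet they were 3, and then 11 with no filter, 45 by DESeq2, 1 with only Xist libraries and 1 to 13 without 1 library. For the diet in the knockout they were 202, and then 677 by DESeq2, 7 with Xist as a covariate, 3 with only Xist libraries, 9 with only the groups compared and 28 to 1096 without 1 library (28 without KC872RL). For the diet in wild type they were 2, and then 12 by DESeq2, 1 with Xist as a covariate, 0 with only Xist libraries, 11 with only the groups compared and 0 to 3 without 1 library. For the interaction they were 0, with 2 under no filter, 7 by DESeq2 and 0 to 0 without 1 library. The cause of these shifts was not tested. Near 0, Srebf2 with the diet in wild type turned from -0.01 to 0.01 with Xist as a covariate (-0.0511 to 0.01 without 1 library), and Npc2 between genotypes under ketogenic feeding turned from 0.01 to -0.0484 with only Xist libraries (-0.1072 to 0.0713 without 1 library). For the diet in the knockout 5 more genes near 0 turned. Soat1 went to 0.008 with only Xist libraries, and without 1 library Tm7sf2 ranged from -0.0362 to 0.1341, Ebp from -0.1702 to 1e-04, Scap from -0.043 to 0.0527 and Insig2 from -0.0477 to 0.0452. No paired analysis was possible because the columns carry no replicate number. The lowest count of these genes in a library was 138, and the part of counting error in their spread was not tested.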
